A study of Mus musculus with 4 samples.

Results

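Arachidonic acid and prostaglandin synthesis was followed through 8 genes: the phospholipase gene Pla2g4a, the cyclooxygenase genes Ptgs1 and Ptgs2, the synthase genes Ptges, Ptges2 and Ptgds, and the degradation genes Ptgr1 and Hpgd. They were picked by name, as enzymes of this route, from a table of 53379 genes, with all 4 columns of the raw counts in view. Their differences between genotypes are therefore a description. No p-value of them is printed, and a call at the threshold says only where the fit over all genes placed a gene and supports nothing. The libraries came from cultured cortical astrocytes of C57BL/6 mice of postnatal day 0, taken at day 14 in vitro, and compared 2 Npas3-/- samples with 2 wild-type (WT) samples. The labels give no further allele, and both genotypes were handled alike: papain dissociation, serum-containing medium, flasks shaken to shed neurons and other cells, and extraction with TRIzol, with no treatment named. The sources used here do not say how the Npas3 allele was made or if replicates are different animals or flasks. P-values therefore rest on sample-to-sample spread that could be purely technical.

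Cytosolic phospholipase A2, the product of Pla2g4a, frees arachidonic acid from membrane phospholipids. The cyclooxygenases, constitutive Ptgs1 and inducible Ptgs2, convert it into prostaglandin H2, which terminal synthases turn into prostaglandin E2 (Ptges, Ptges2) or D2 (Ptgds). Prostaglandins are then inactivated by the dehydrogenase Hpgd and by reductases such as Ptgr1. In brain, a large part of the arachidonic acid for prostaglandins is known to come from the endocannabinoid 2-arachidonoylglycerol through monoacylglycerol lipase (Mgll), and astrocytes are a source of prostaglandin E2.

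The libraries held between 82965565 and 86932708 counts over genes. Npas3 itself had 2055 and 1386 counts in the Npas3-/- libraries, against 5129 and 8739 counts in the WT libraries, a reduction to 28.3% of the mean WT level in CPM (counts scaled by the TMM-adjusted library size), so transcript was still counted in both. Its log2 fold change was -1.82 (SE 0.33), called lower, and -0.65 (SE 0.22), not called, once the GC content and length of transcripts were corrected for, as explained below. All 8 astrocyte markers were counted in every library, S100b with as few as 12 counts, and they differed in direction: Gfap and Aldoc were called higher, Aqp4, Gja1 and Slc1a2 lower, and these calls held with the same correction except that of Slc1a2. Their sum, 4730 to 4751 CPM in Npas3-/- and 2956 to 3760 CPM in WT, rested largely on Gfap and Aldoc in Npas3-/-. WT replicate 2 stood apart in the mural marker Acta2, with 270.2 CPM against 1243 to 1359 CPM in the other 3 libraries. The mural markers did not move together in that library. Rgs5 was highest there, at 11.5 CPM against 3.82 CPM in WT replicate 1 and 0.386 and 0.312 CPM in Npas3-/- libraries. Pdgfrb was similar throughout, at 32.3 to 37.8 CPM. Fold changes across the transcriptome followed the GC content of the transcript, with Spearman's rho of 0.730 over 14356 genes of at least 1 CPM. Weighted by counts, transcripts had 53.2% and 53.6% GC in the Npas3-/- libraries and 51.5% and 50.2% GC in the WT libraries. Fold changes of the 8 genes are therefore given a second time with the GC content and length of transcripts corrected for.

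The 8 genes did not share a direction. Pla2g4a and Ptgs2 were lower in both Npas3-/- libraries, at 4.85% and 12.2% of the mean WT level in CPM. Ptges and Ptges2 were higher, at 185% and 214% of it. Of the 8 genes 7 had enough counts to be tested, and in edgeR's quasi-likelihood fit over all genes 2 of them were called higher and 2 lower at an adjusted p below 0.05. The same fit called 33.1% of the 18838 tested genes, 11.6% higher and 21.5% lower. With the correction 1 was called higher and 1 lower, where the background was 4.54% higher and 3.81% lower. In all 7 the genotypes did not overlap, as in 75.8% of all tested genes (35.7% higher and 40.1% lower in Npas3-/-). Because the 8 genes were chosen with these values known, nothing is read from either count. Without Npas3-/- replicate 2 Pla2g4a and Ptgs2 stood at log2 fold changes of -4.46 and -2.99, and without Npas3-/- replicate 1 at -4.27 and -3.07. Fits that left out a library differed widely in how many of all genes they called, so that a call or its absence there is not read. DESeq2 called 5 and limma-voom 4 of the 7, next to 8372 and 6036 of the 18838 tested genes.

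**Figure D1:**
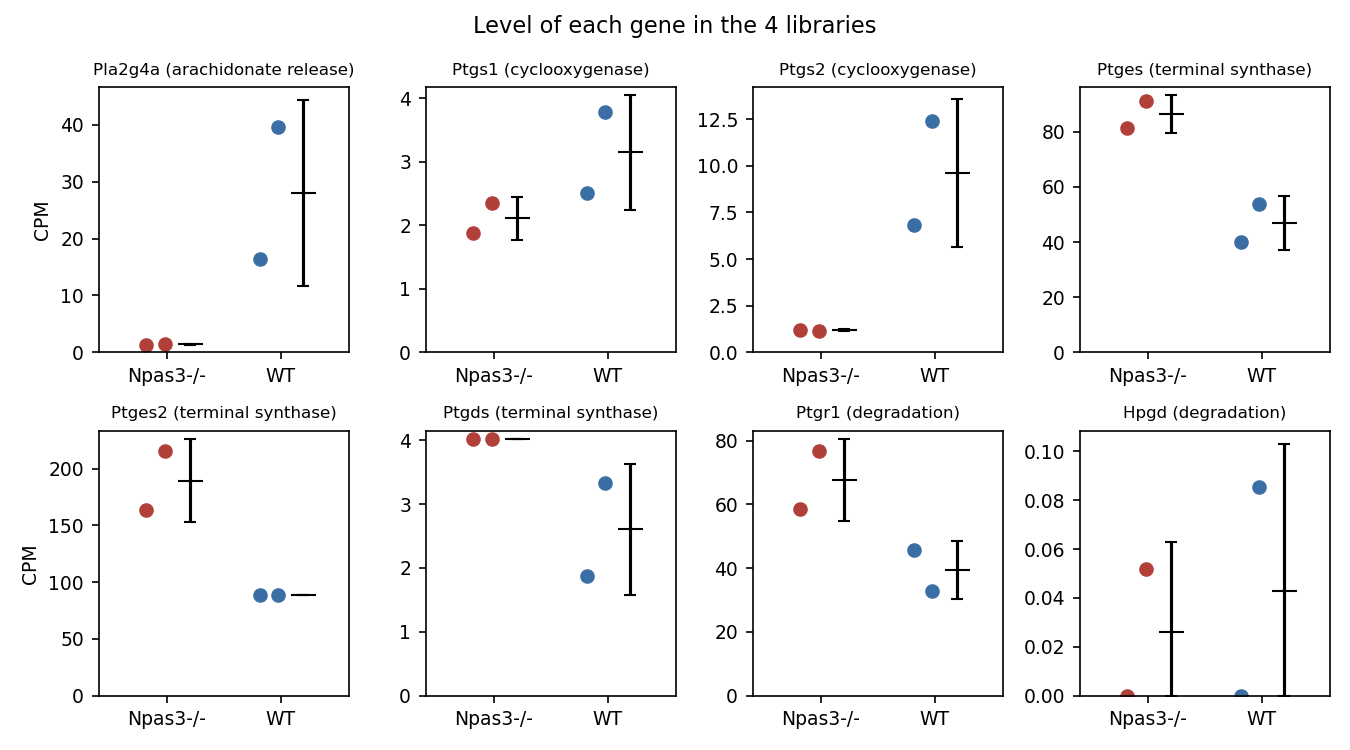
Level of each of the 8 genes in CPM (vertical axes, linear and starting at 0) in the 2 Npas3-/- libraries (red) and the 2 WT libraries (blue). Points are libraries, horizontal ticks are means and bars are SD of n = 2, not drawn below 0. Pla2g4a and Ptgs2 lie far below both WT libraries in both Npas3-/- libraries, while Ptges, Ptges2 and Ptgr1 lie above both WT libraries.

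Pla2g4a (ENSMUSG00000056220.14, mm10 chromosome 1, 149829618 to 149961290, minus strand) had 105 and 112 counts in the Npas3-/- libraries, against 1460 and 3709 counts in the WT libraries. These correspond to 1.27 and 1.45 CPM in Npas3-/- and to 16.4 and 39.6 CPM in WT. The Npas3-/- libraries were nearly equal, the WT libraries differed widely from each other, and the genotypes lay far apart. The mean was 1.36 ± 0.132 CPM in Npas3-/- and 28.03 ± 16.4 CPM in WT (SD, n = 2 each). The log2 fold change was -4.36 (SE 0.53), and with the correction for GC content and length -2.50 (SE 0.30). The gene was called lower in both fits. In the corrected fit it stood at -2.75 without WT replicate 1 and at -2.22 without WT replicate 2. It stood there at -2.31 without Npas3-/- replicate 1 and at -2.66 without Npas3-/- replicate 2.

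The bases in front of the annotated start of Pla2g4a are shown because it had the largest difference of the 8 genes. Pla2g4a has 2 RefSeq promoter windows in GRCm38.p6, and that nearest the annotated start was used. Its upstream bases are chr1:149961291-149961540 on the minus strand. They are all in lower case because none of the motifs named below was found in that window. Matches in the other window of the gene are not given.
Pla2g4a: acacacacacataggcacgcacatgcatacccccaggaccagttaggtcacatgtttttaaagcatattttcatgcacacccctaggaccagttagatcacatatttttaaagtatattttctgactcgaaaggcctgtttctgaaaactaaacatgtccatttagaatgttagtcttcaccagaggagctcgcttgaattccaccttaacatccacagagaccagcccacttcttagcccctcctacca

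Of the cyclooxygenase genes Ptgs2 was called lower and Ptgs1 was not, and the difference between them was not tested. Ptgs2 (ENSMUSG00000032487.8, mm10 chromosome 1, 150100031 to 150108227, plus strand) had 100 and 88 counts in the Npas3-/- libraries, against 605 and 1163 counts in the WT libraries. That is 1.21 and 1.14 CPM in Npas3-/- and 6.81 and 12.4 CPM in WT, with both Npas3-/- libraries well below both WT libraries. Its log2 fold change was -3.03 (SE 0.44). With the correction for GC content and length it was -0.68 (SE 0.30), and Ptgs2 was not called there. Ptgs1 (ENSMUSG00000047250.13, mm10 chromosome 2, 36230426 to 36252272, plus strand) had 155 and 181 counts in Npas3-/- libraries, against 223 and 355 counts in WT libraries. In CPM it stood at 1.87 and 2.35 in Npas3-/- and at 2.51 and 3.79 in WT, so that the ranges lay next to each other without overlap. Its log2 fold change was -0.58 (SE 0.42) without and -0.73 (SE 0.41) with the correction, and it was called in neither fit. Ptgs1 shares 148 exonic bases with an annotated gene on the opposite strand, and the strand setting of the counting is not given in the sources used here.

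Per kilobase of exon, Ptgs1 was the larger part of the cyclooxygenase transcripts in Npas3-/- and Ptgs2 in WT. No share was computed with the correction for GC content and length. Ptgs1 made up 64.6% and 70.8% of the summed RPKM (counts per kilobase of exon and TMM-scaled library size, from CPM) of Ptgs1 and Ptgs2 in the Npas3-/- libraries, against 30.3% and 26.5% in the WT libraries. The summed level was 0.745 and 0.855 RPKM in Npas3-/- and 2.13 and 3.69 RPKM in WT. RPKM values carry no correction for GC content, which was 51.03% for the Ptgs1 transcript and 40.02% for the Ptgs2 transcript. In the corrected fit the log2 fold changes of Ptgs1 (-0.73) and Ptgs2 (-0.68) were nearly equal. They were -1.05 and -0.54 without WT replicate 1, and -0.37 and -0.81 without WT replicate 2.

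Among the terminal synthases, both prostaglandin E synthase genes of the list were higher. Ptges (ENSMUSG00000050737.13, mm10 chromosome 2, 30889471 to 30929863, minus strand), the inducible microsomal enzyme that is known to work together with Ptgs2, had 81.5 and 91.3 CPM in Npas3-/- libraries, against 39.8 and 53.7 CPM in WT libraries. Its log2 fold change was 0.88 (SE 0.23), called higher, and 0.63 (SE 0.23) with the correction, not called. Ptges2 (ENSMUSG00000026820.5, mm10 chromosome 2, 32395896 to 32405772, plus strand), a second membrane-associated prostaglandin E synthase, had 163 and 216 CPM in Npas3-/- libraries, against 88.9 and 88.4 CPM in WT libraries. Here the WT libraries were nearly equal and the Npas3-/- libraries spread. Its log2 fold change of 1.096 (SE 0.22) moved little with the correction, to 0.99 (SE 0.21), and it was called higher in both fits. In the uncorrected fit Ptges and Ptges2 stood at 0.81 and 0.89 without Npas3-/- replicate 2 and at 0.96 and 1.28 without Npas3-/- replicate 1. They stood at 0.66 and 1.08 without WT replicate 1, and at 1.1003 and 1.08 without WT replicate 2. With the correction Ptges2 stood at 0.71 to 1.22 in the 4 fits that left out a library.

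Ptgds (ENSMUSG00000015090.13, mm10 chromosome 2, 25466709 to 25470046, minus strand), the lipocalin-type prostaglandin D synthase of meninges, choroid plexus and oligodendrocytes, was scarce. It had 4.02 and 4.01 CPM in Npas3-/- libraries, against 1.88 and 3.32 CPM in WT libraries. The log2 fold change was 0.63 (SE 0.43) and, with the correction, -0.52 (SE 0.49), so that its direction turned with the scaling, and it was called in neither fit. The oligodendrocyte-lineage markers (5 of 7 tested, 1 called higher and 1 lower) summed to 606 to 691 CPM in Npas3-/- and 422 to 513 CPM in WT, most of it from Cnp and Olig2, while Mog was at 0 in all 4 libraries. The ependymal and choroid plexus markers summed to 492 to 618 CPM in Npas3-/- and 251 to 357 CPM in WT, most of it from Foxj1, while Ttr had 12 counts in 1 WT library and 0 in the others. Of these, 5 of 6 were tested and 0 were called by edgeR (1 at an unadjusted p below 0.05, and 1 called by DESeq2 and by limma-voom). The fibroblast and meningeal markers summed to 266 to 324 CPM in Npas3-/- and 315 to 369.7 CPM in WT, and of the 6 tested of 8 genes 3 were called lower, Col3a1, Dcn and Aldh1a2. Both the oligodendrocyte and the ependymal sums thus lay higher in Npas3-/-, as Ptgds did without the correction. The part of these cells in the levels of Ptgds was not tested. In bulk libraries fewer cells of a type and less RNA per cell cannot be told apart.

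Of the degradation genes Ptgr1 passed the filter on low counts and Hpgd did not. Ptgr1 (ENSMUSG00000028378.6, mm10 chromosome 4, 58965439 to 58987119, minus strand), a reductase of prostaglandins and leukotriene B4, had 58.4 and 76.7 CPM in Npas3-/- libraries, against 45.7 and 32.9 CPM in WT libraries. Both Npas3-/- libraries lay above both WT libraries. Its log2 fold change was 0.78 (SE 0.27) without and 0.93 (SE 0.22) with the correction, and it was called in neither fit, although DESeq2 called it (0.80). Hpgd (ENSMUSG00000031613.9, mm10 chromosome 8, 56294585 to 56321043, plus strand), the dehydrogenase that opens prostaglandin inactivation, had 0 and 4 counts in Npas3-/- libraries and 0 and 8 counts in WT libraries. It was left out of the test, and a difference was not detectable at this depth, where 3 counts correspond to 0.0320 to 0.0390 CPM.

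Set per length, Ptges2, Ptgr1 and Ptges were the most abundant in both genotypes. In Npas3-/- the order was Ptges2 (37.5 ± 7.28 RPKM), Ptgr1 (29.4 ± 5.63), Ptges (22.0 ± 1.76), Ptgds (2.44 ± 0.00280), Ptgs1 (0.543 ± 0.0873), Ptgs2 (0.257 ± 0.00991), Pla2g4a (0.213 ± 0.0207) and Hpgd (SD, n = 2). In WT it was Ptges2 (17.5 ± 0.0668 RPKM), Ptgr1 (17.1 ± 3.94), Ptges (11.9 ± 2.50), Pla2g4a (4.39 ± 2.56), Ptgs2 (2.1 ± 0.866), Ptgds (1.58 ± 0.618), Ptgs1 (0.812 ± 0.233) and Hpgd (SD, n = 2). The libraries of neighbours in this order overlapped for Ptges2 and Ptgr1 in both genotypes, and in WT also for Pla2g4a and Ptgs2 and for Ptgs2 and Ptgds. Pla2g4a thus stood just below the abundant enzymes in WT and just above Hpgd in Npas3-/-. The places of Pla2g4a and Ptgs2 in Npas3-/- depended on the length used: per kilobase of the longest coding transcript they had 0.477 and 0.264 RPKM. With that length Ptgds (2.89 RPKM) also stood above Ptgs2 (2.16 RPKM) in WT.

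**Figure D2:**
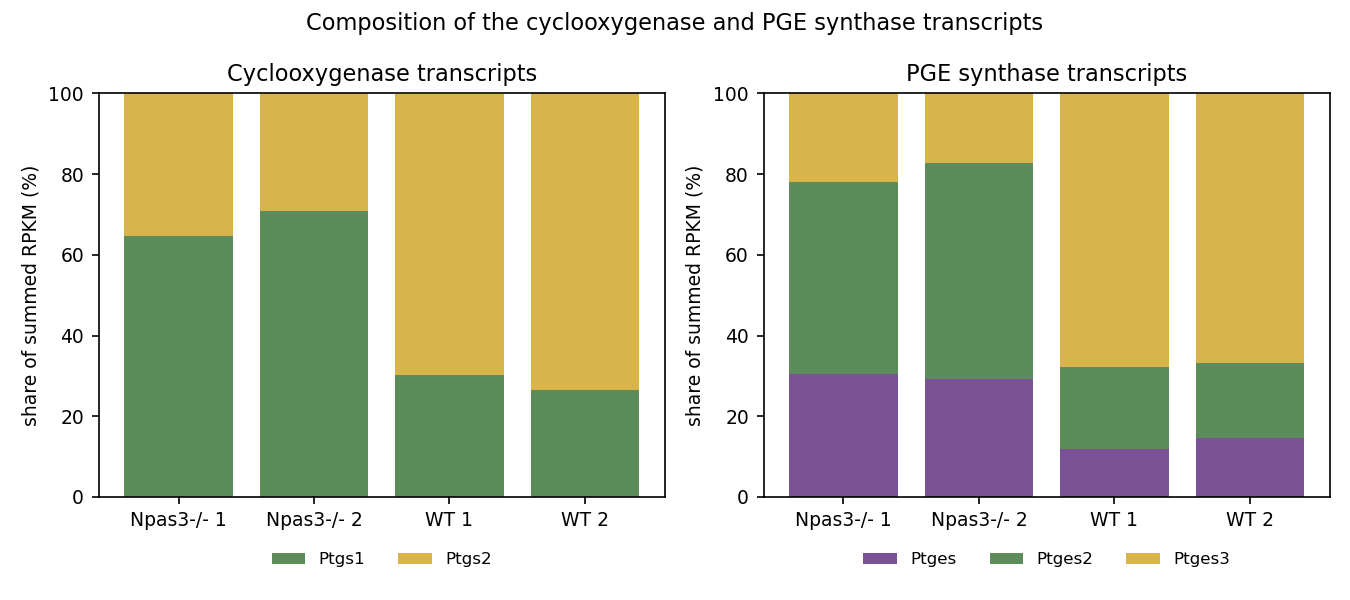
Share of each gene in the summed RPKM (vertical axes, percent) of the cyclooxygenase genes (left) and of the prostaglandin E synthase genes (right) in the 4 libraries, 1 bar per library. Ptgs1 is the larger part in both Npas3-/- libraries and Ptgs2 in both WT libraries, and the share of Ptges3 is 21.9% and 17.3% in Npas3-/- libraries, against 67.7% and 66.7% in WT libraries.

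The prostaglandin E synthase transcripts were also composed differently. Ptges3, a cytosolic prostaglandin E synthase better known as the Hsp90 co-chaperone p23, fell to 31.7 ± 1.71 CPM in Npas3-/-, against 134 ± 6.79 CPM in WT (SD, n = 2 each), with -2.08 on the log2 scale and a standard error of 0.19 (edgeR's quasi-likelihood test, Benjamini-Hochberg adjusted p = 0.0130). With the correction it stood at -0.76 (edgeR, adjusted p = 0.0545). Reads may be shared with the pseudogene Ptges3-ps, which had 833 and 747 counts in Npas3-/- libraries and 2242 and 3110 counts in WT libraries. Ptges3 made up 21.9% and 17.3% of the summed RPKM of Ptges, Ptges2 and Ptges3 in Npas3-/- libraries, against 67.7% and 66.7% in WT libraries. Ptges2 made up 47.6% and 53.5% in Npas3-/- libraries and 20.5% and 18.7% in WT libraries. The summed level was 67.9 and 79.6 RPKM in Npas3-/- and 85.9 and 93.7 RPKM in WT. The GC content was 43.2% for the Ptges3 transcript and 54.7% for that of Ptges2.

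The 8 genes spread along the GC gradient of these libraries. The transcripts of Ptgs2 and Pla2g4a had a GC content of 40.02% and 42.1%, and those of Ptgr1, Ptgs1, Ptges, Ptges2 and Ptgds one of 48.6%, 51.03%, 53.1%, 54.7% and 56.2%. Among all 2480 genes with 40 to 45% GC and at least 1 CPM, log2 fold changes had a median of -2.01, with quartiles of -2.68 and -1.14. Pla2g4a, at -4.36, and Ptgs2, at -3.03, lay below the lower quartile. Ptgs2 stands at the edge of this bin, and among the 622 genes under 40% GC its value would lie between the quartiles, which were -3.04 and -1.91 there. Genes with 50 to 55% GC had a median of 0.41 and an upper quartile of 0.82, and Ptges (0.88) and Ptges2 (1.096) lay above both, while Ptgs1 (-0.58) lay below the lower quartile of -0.16. Ptgr1 (0.78) lay above the upper quartile of 0.15 of genes with 45 to 50% GC. Ptgds (0.63) lay below the median of 0.76 of genes with 55 to 60% GC. After the correction the bin medians lay between -0.12 and 0.062.

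**Figure D3:**
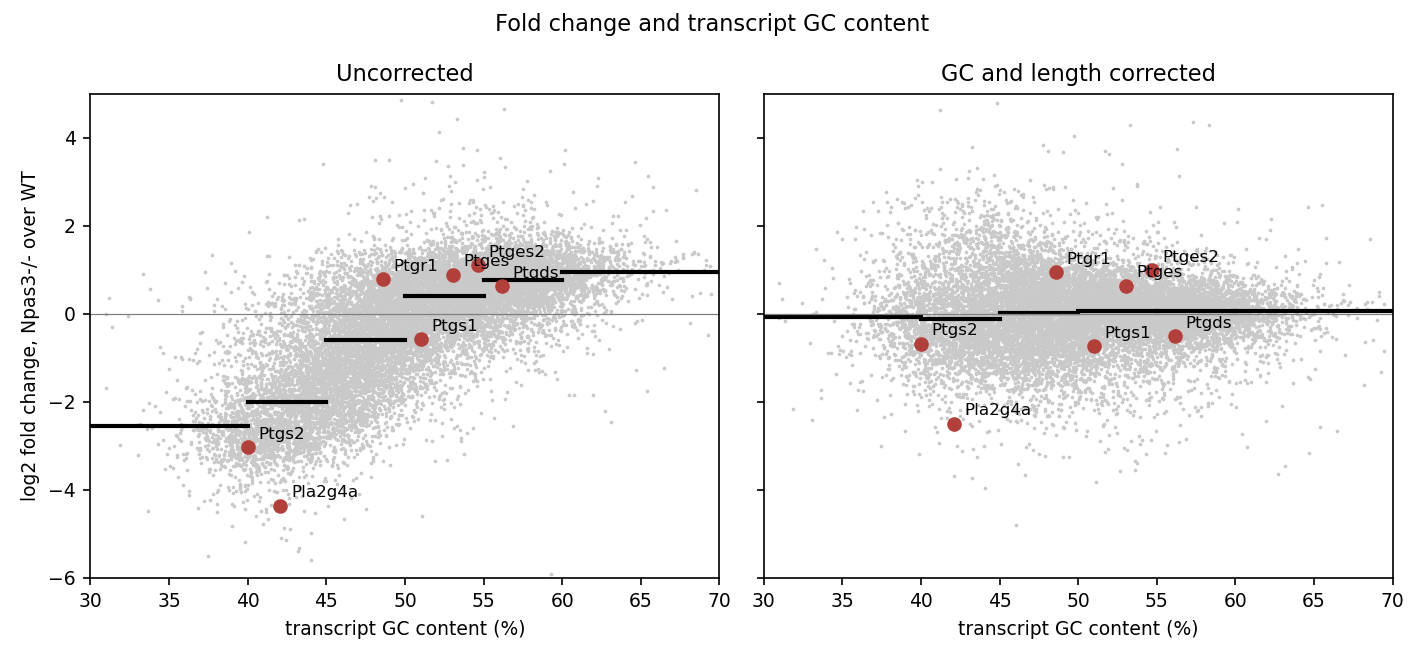
Log2 fold change of Npas3-/- over WT (vertical axis) against transcript GC content in percent (horizontal axis) for the tested genes with at least 1 CPM (grey), without correction (left) and with correction for GC content and length (right). Black lines are medians in bins of GC content, drawn for the outer bins up to the axis limits; red points are the 7 tested genes of the route. Ptgs2 moves to -0.68 on the right, Pla2g4a to -2.50, and Ptges2 stays near 1.

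Pla2g4a and Ptgs2 are neighbours. They lie head to head on chromosome 1 with 139 kb between their starts and 0 tested genes between them. Over all tested genes edgeR called 11.6% higher and 21.5% lower. Within 1 Mb of Pla2g4a or Ptgs2, 5 other genes were tested. Of these, 0 were called higher and 1 lower by edgeR (0 and 2 at an unadjusted p below 0.05, 0 and 2 by DESeq2, 0 and 0 by limma-voom). That was Odr4, at 2.31 and 1.60 CPM in Npas3-/- libraries against 5.98 and 29.6 CPM in WT libraries (-3.19 on the log2 scale with a standard error of 0.80, edgeR adjusted p = 0.0355, and -1.33, not called, with the correction). Tpr, which encodes a nuclear pore protein and overlaps Odr4, had a log2 fold change of -1.77 (SE 0.67) and was not called. Hmcn1 (-1.48, SE 1.16) and the pseudogenes Rbm3-ps (0.53, SE 0.78) and Gm15443 (-1.14, SE 0.90) were not called either. Of Odr4 and Tpr, WT replicate 2 held 2768 and 6674 counts, against 531 and 1675 counts in WT replicate 1.

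Npas3 belongs to the bHLH-PAS transcription factors, several of which bind DNA as dimers with ARNT at sites with the core ACGTG. In the RefSeq promoter windows of GRCm38.p6, which span 250 bases before to 50 bases after a start, this core was found on either strand in 19.6% of 32817 windows. The E-box CACGTG, which contains it, was found in 7.15%, TGACG, the core of the cAMP response element, in 20.8% and TATAAA in 13.6%. All 8 genes had a window, and the core was present in 2 of them, Ptgs2 and Ptges2, each time as an E-box. Ptgs2 was lower and Ptges2 higher in Npas3-/-. In Ptgs2 the E-box begins at position 16 from the annotated start and overlaps a TGACG on the opposite strand, and in Ptges2 it begins at position -77. These sites are shown with the motif letters in capitals. They are chr1:150100035-150100064 and chr2:32395801-32395830, both on the plus strand.
Ptgs2: tcaccactaCGTCACGTGgagtccgcttta
Ptges2: ccatttccgcgaCACGTGgtttccaaggcc
The TATAAA letters were found in the window of Hpgd only. The other 5 windows used, that of Pla2g4a above among them, held none of the 4 motifs. A match is a run of letters and no sign of binding.

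Beyond the 8 genes, 75 other genes of eicosanoid metabolism were listed by function, and 57 of them were tested. By edgeR's quasi-likelihood test 9 rose and 10 fell, a share of 33.3% next to 33.1% of all tested genes, with a median log2 fold change of 0.086 next to -0.070 over all tested genes. With the correction 2 were called higher and 3 lower, next to 8.35% called among all genes, and Mgll and Plaa were the 2 genes called in both fits. The count called changed with each library left out, as did the count over all tested genes, and nothing is read from that change.

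**Figure D4:**
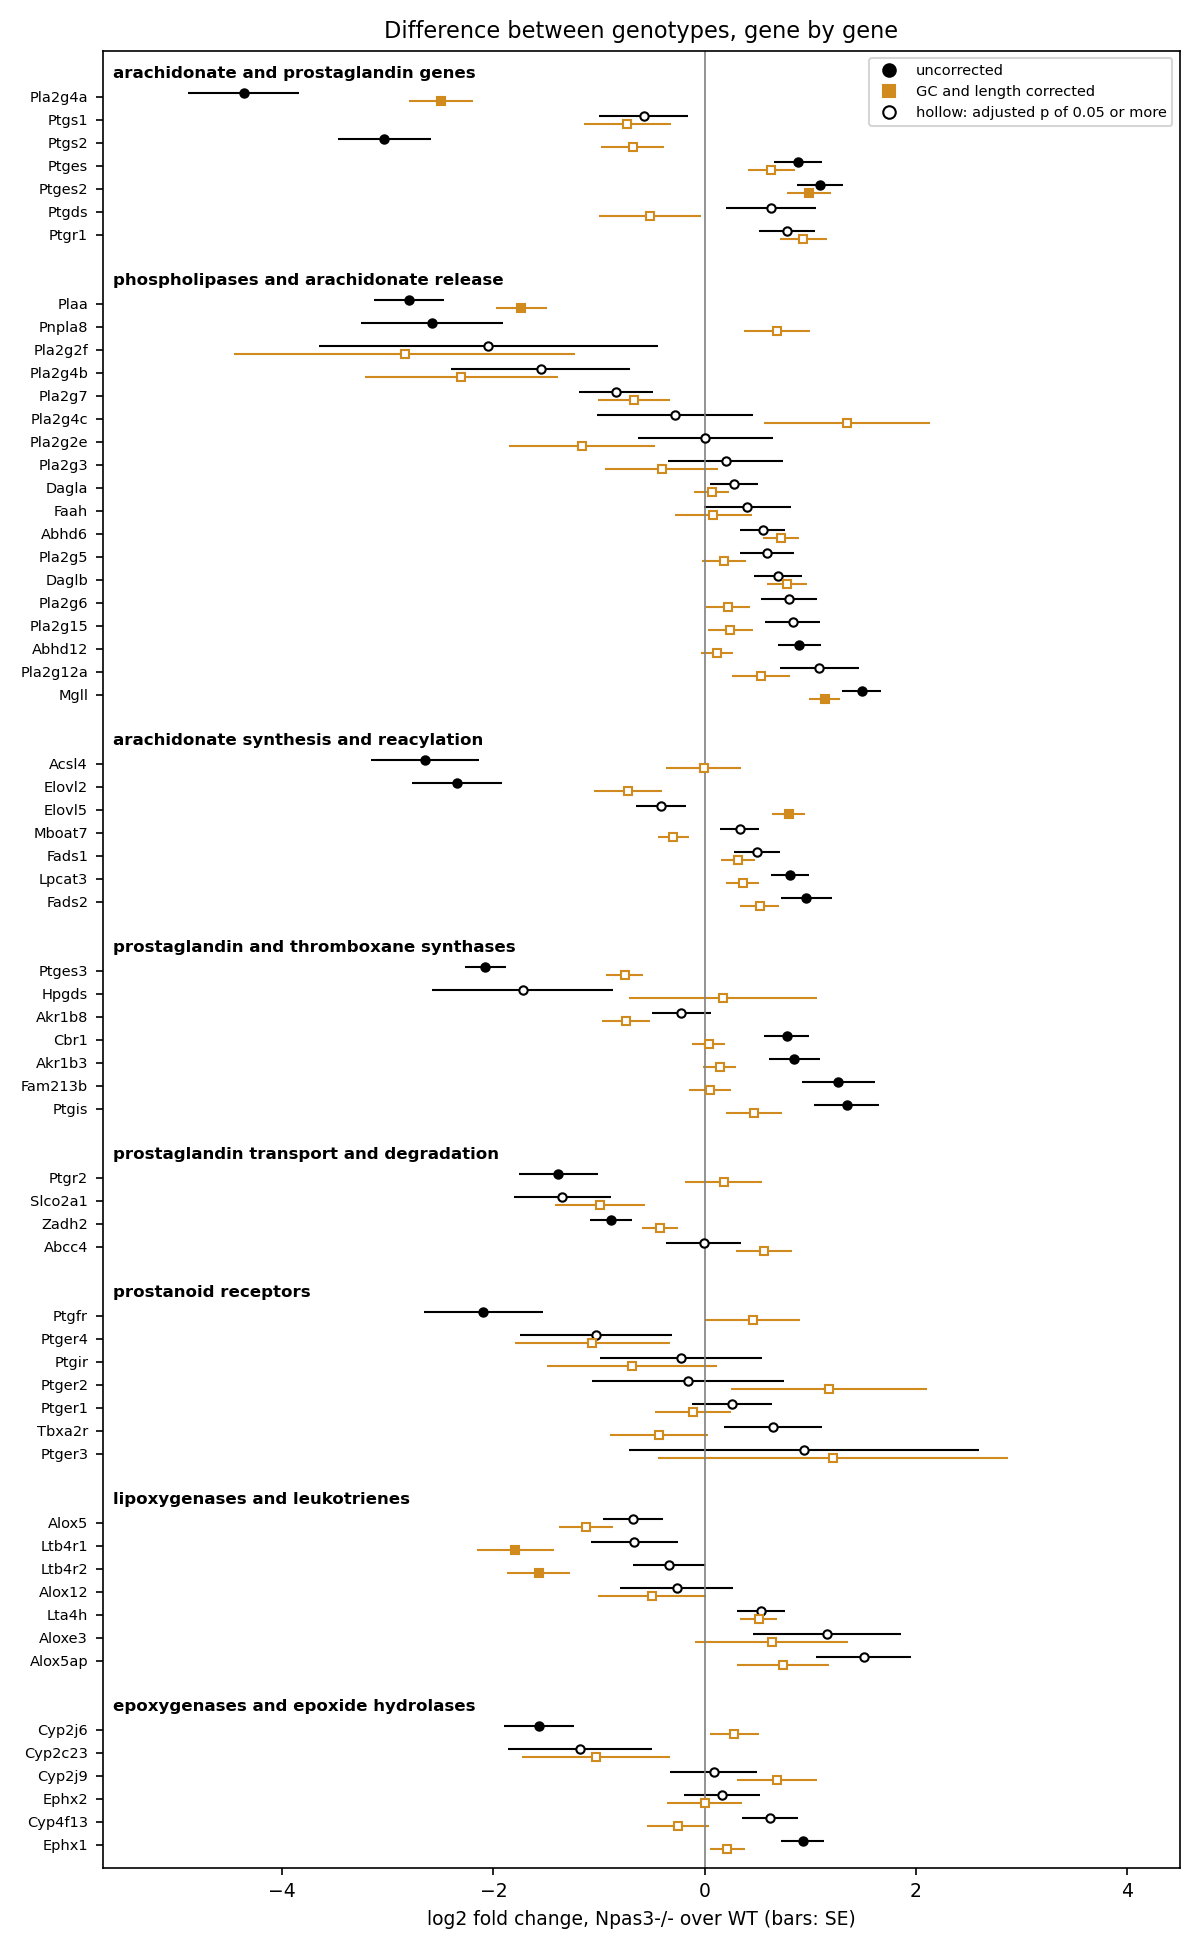
Log2 fold change of Npas3-/- over WT (horizontal axis, bars are SE) for the 7 tested genes of the route and the tested genes of eicosanoid metabolism, grouped by function, without correction (black circles) and with correction for GC content and length (orange squares). Filled symbols have an adjusted p below 0.05 by edgeR. Akr1c18, at 0 counts in both Npas3-/- libraries, is left out. Pla2g4a, Ptges2, Plaa and Mgll are filled in both fits.

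Among 25 genes of phospholipases and arachidonate release, 18 were tested, and 2 rose and 2 fell. The share called was 22.2%, next to 33.1% of all tested genes. Mgll, the lipase that turns 2-arachidonoylglycerol into arachidonic acid, had 309.6 and 312 CPM in Npas3-/- libraries, against 111 CPM in both WT libraries. It rose by 1.49 on the log2 scale, with a standard error of 0.19 (edgeR adjusted p = 0.0130), and stood at 1.14 with the correction (edgeR adjusted p = 0.0239). Plaa, a phospholipase A2-activating protein that also binds ubiquitin, fell to 7.58 ± 0.563 CPM in Npas3-/-, against 52.7 ± 18.8 CPM in WT (SD, n = 2 each; log2 fold change -2.80, and -1.74 with the correction, adjusted p = 0.0130 and 0.0245 by edgeR). Abhd12, a further 2-arachidonoylglycerol hydrolase, rose to 164 ± 1.25 CPM in Npas3-/-, against 88.1 ± 13.6 CPM in WT. The patatin-like phospholipase gene Pnpla8 fell to 4.91 ± 0.215 CPM in Npas3-/-, against 29.4 ± 25.2 CPM in WT. With the correction neither Abhd12 (0.12) nor Pnpla8 (0.68) was called, and the sign of Pnpla8 turned. Pla2g2a, named after its values were seen and known to carry a disrupted allele in C57BL/6 mice, had 0 counts in all 4 libraries.

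Of the 7 genes of arachidonate synthesis and reacylation, all tested, 2 rose and 2 fell, a share of 57.1% next to 33.1% of all tested genes. The desaturase gene Fads2 rose to 543 ± 80.0 CPM in Npas3-/-, against 279 ± 51.9 CPM in WT. Lpcat3, which returns arachidonate to phospholipids, rose to 103 ± 0.335 CPM in Npas3-/-, against 58.6 ± 1.40 CPM in WT. Acsl4, the acyl-CoA synthetase with a preference for arachidonate, fell to 1.75 ± 0.303 CPM in Npas3-/-, against 10.9 ± 6.12 CPM in WT, and the elongase gene Elovl2 fell to 1.18 ± 0.178 CPM in Npas3-/-, against 5.99 ± 1.89 CPM in WT. None of these 4 was called with the correction, where Acsl4 stood at -0.0089 and Elovl5, named after its values were seen, was called higher at 0.80. Without the correction Elovl5 stood at -0.41, not called, so that its sign turned.

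Of the 9 other prostaglandin and thromboxane synthase genes 8 were tested, 4 rose and 2 fell, a share of 75% called next to 33.1% of all tested genes. The prostacyclin synthase gene Ptgis rose to 16.1 ± 3.44 CPM in Npas3-/-, against 6.32 ± 0.439 CPM in WT, and the carbonyl reductase gene Cbr1 to 62.4 ± 3.86 CPM in Npas3-/-, against 36.4 ± 4.67 CPM in WT. Akr1b3, the aldose reductase gene and the most abundant of these, rose to 272 ± 28.3 CPM in Npas3-/-, against 151 ± 35.1 CPM in WT. Fam213b, a prostaglandin F synthase gene named after its values were seen, also rose, and Ptges3, given above, fell. Akr1c18, a hydroxysteroid dehydrogenase gene of the aldo-keto reductase family, had 0 counts in both Npas3-/- libraries, against 52 and 27 counts in the WT libraries. Taking 3 counts per library as the floor, the mean WT level of 0.437 CPM was at least 11.6 times that in Npas3-/-. The WT libraries differed, at 0.586 and 0.288 CPM, and the bound does not take in that spread. With the correction 0 of the 8 were called by edgeR, next to 8.35% of all genes (3 at an unadjusted p below 0.05, all lower). DESeq2 and limma-voom, without it, each called 4 higher and 2 lower.

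Of the 4 transport and degradation genes 0 rose and 2 fell by edgeR (0 and 3 at an unadjusted p below 0.05 and by DESeq2, 0 and 2 by limma-voom). The share called by edgeR was 50%, next to 33.1% of all tested genes. The prostaglandin reductase gene Ptgr2 fell to 55.6 ± 26.2 CPM in Npas3-/-, against 145 ± 26.2 CPM in WT, and Zadh2, also known as prostaglandin reductase-3, fell to 36.02 ± 1.57 CPM in Npas3-/-, against 66.7 ± 5.27 CPM in WT. Neither was called with the correction, at 0.18 and -0.42. Ptgr2 shares 1896 exonic bases with a gene on the opposite strand, so its counts are uncertain.

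Receptors were scarce. Of 9 prostanoid receptor genes 7 were tested, and by edgeR 0 rose and 1 fell (the same at an unadjusted p below 0.05 and by DESeq2, 0 and 0 by limma-voom). The share called by edgeR was 14.3%, next to 33.1% of all tested genes. The prostaglandin F receptor gene Ptgfr fell to 0.522 ± 0.150 CPM in Npas3-/-, against 2.24 ± 0.870 CPM in WT (-2.097 on the log2 scale, edgeR adjusted p = 0.0409), and stood at 0.46, not called, with the correction. The D receptor gene Ptgdr had 0 counts in all 4 libraries.

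Of 13 lipoxygenase and leukotriene genes 7 were tested and 0 were called by edgeR (1 at an unadjusted p below 0.05, 1 by DESeq2, 0 by limma-voom). Over all tested genes edgeR called 33.1%. The hydrolase gene Lta4h was the most abundant, at 104 ± 2.61 CPM in Npas3-/- and 71.4 ± 15.9 CPM in WT. With the correction the leukotriene B4 receptor genes Ltb4r1 (-1.79) and Ltb4r2 (-1.57), named after their values were seen, were called lower. Of 8 epoxygenase and epoxide hydrolase genes 6 were tested, 1 rose and 1 fell, a share of 33.3% next to 33.1% of all tested genes. The microsomal hydrolase gene Ephx1 rose to 1309 ± 37.2 CPM in Npas3-/-, against 688 ± 11.4 CPM in WT, and the epoxygenase gene Cyp2j6 fell to 9.65 ± 1.15 CPM in Npas3-/-, against 28.7 ± 9.75 CPM in WT. Neither was called with the correction, at 0.21 and 0.28. Microglia are known to express Ptgs1, Hpgds and Alox5ap. Of their defining markers, Aif1 had 33 and 20 counts in Npas3-/- libraries and 18 and 0 counts in WT libraries, and Ptprc had 8 counts in 1 Npas3-/- library and 0 in the other 3 libraries. Csf1r had 0.483 and 0.909 CPM in Npas3-/- libraries and 0.484 and 0.470 CPM in WT libraries, so that these markers were close to 0 in both genotypes. The part of microglia in the levels of Ptgs1 was not tested.

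The genes most like Pla2g4a across the 4 libraries, by Euclidean distance of centred log2 CPM among 11013 other genes, were Dynlt3 (distance 0.110), Pum2 (0.115) and Vps35 (0.137). Their transcripts had a GC content of 38.9% to 42.3%. The genes most like Ptges2, the most abundant of the 8, were Zswim7 (0.02995), the astrocyte membrane protein gene Mlc1 (0.0343) and Rpl22 (0.0420).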

How the data were processed

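Raw counts for the 4 samples stand in 1 table, as the authors deposited it. HISAT2 2.1.0, Trimmomatic 0.3.8, featureCounts and the build mm10 are named, per the submitters' processing notes. The sources used here do not state the strand setting, annotation release or handling of shared reads. Of 53379 identifiers 53274 were found in the GENCODE annotation of mm10, which gave symbols, coordinates, exon lengths and GC content (longest protein-coding transcript, else the longest). The 8 genes, the lists, the tests and the alternatives were chosen with earlier results of these data known.

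Counts were tested with edgeR 4.0.16 (R 4.3.3; quasi-likelihood test, TMM, filterByExpr with a minimum count of 10, no covariate, residual df 2) and Benjamini-Hochberg adjustment over all tested genes and a threshold of 0.05. The SE is the log2 fold change over the square root of F. The correction entered, as an offset, natural splines (df 6) of GC content and of log2 length, fitted per library; it also removes true differences that follow these properties. The fits were also run on simulated data with the same spread set for every gene, and no accuracy in these libraries is read from that. CPM used TMM-scaled library sizes, and RPKM was computed here from CPM and the union of exons. Alternatives were DESeq2, limma-voom, DESeq2 size factors, other filters, a replicate block and leaving out each library. Replicate spread (SD, n = 2) and counting floors (3 counts) limit precision; floors cover counting error only.

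Named were the 8 genes, Npas3, the genes near Pla2g4a and Ptgs2, and in each functional group up to 4 called genes and the most abundant. The most abundant prostanoid receptor gene and the summed level of the microglial markers are not reported here. For likeness, log2 CPM had a pseudocount of 2 and genes at least 5 CPM on average.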

Additional observations from a re-analysis of the deposited data

How the results depend on the processing

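The reported fit called 6232 genes, 4 of the 8 prostaglandin genes and 19 of the other pathway genes. With no filter on low counts, where 27026 genes were tested, the numbers were 3997, 3 and 11. With the correction for GC content and length they were 1571, 2 and 5. At an adjusted p below 0.01 all were 0 by edgeR, against 9024, 5 and 26 at an unadjusted p below 0.05. Same-numbered samples deviated from their group means in opposite ways (Pearson's r -0.288 across 14365 genes, which are not independent). With 2 samples per genotype, this cannot decide if the replicate numbers pair the samples. With the replicate number as a block 2560 genes, 2 of the 8 and 7 pathway genes were called, and with block and correction 0 of each by edgeR (4303, 4 and 14 at an unadjusted p below 0.05). A crossed block, added after the data were seen, gave 7670, 5 and 21, and with the correction 2479, 3 and 7. Leaving out each library in turn gave 0 to 5832 genes, 0 to 3 of the 8 and 0 to 18 pathway genes, and with the correction 5 to 1815 genes (871 without WT replicate 2), 0 to 2 and 0 to 6. There the lone library of a genotype is assumed to vary like the other genotype. In those of these fits that gave 0 of the 8 by edgeR, 3 or 4 had an unadjusted p below 0.05. DESeq2 size factors, DESeq2, limma-voom and a filter of 5 CPM kept all 3 counts within 1.5 times.

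Over 18 alternatives the log2 fold change lay between -4.88 and -2.22 for Pla2g4a, between -3.42 and -0.52 for Ptgs2, between 0.38 and 1.1003 for Ptges, between 0.71 and 1.28 for Ptges2 and between 0.55 and 1.14 for Ptgr1. Ptgds turned to -0.52 with the correction, to -0.43 and -0.42 with correction and block or crossed block, and with the correction to -0.77 without Npas3-/- replicate 1, -0.29 without Npas3-/- replicate 2 and -1.03 without WT replicate 1, but not without WT replicate 2 (0.19). Per kilobase of the longest coding transcript, the share of Ptgs1 was 73.4% in Npas3-/- and 34.3% in WT. A window of 2 Mb around Pla2g4a and Ptgs2 held 7 called genes of 15 tested, all lower, next to 21.5% called lower among all tested genes, and 0 by edgeR with the correction (3 at an unadjusted p below 0.05). The cause was not tested. With 2 samples per genotype and 3 counts as the floor, no difference in Hpgd could be detected.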
